A study of Mus musculus with 12 samples.

Results

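Pttg1 and Pttg1ip, the genes of securin and of a protein that binds it, were followed through all 12 libraries of a study of the mouse medial prefrontal cortex. They are 2 of the 55678 gene names in the deposited table. Pttg1 was picked on its measured values, near zero in BALB/c mice and high in B6 mice. Its strain difference is therefore given as a description, with no test. Pttg1ip was taken as the binding partner of Pttg1, and not for its values. The study used mice of the inbred strain C57BL/6JmsSlc, called B6 here, and of BALB/cCrSlc, called BALB/c, and left part of each strain as handled controls while the rest went through chronic restraint stress (CRS). Each of the 4 groups (B6 control, B6 CRS, BALB/c control and BALB/c CRS) held 3 libraries, each from a separately numbered animal. According to the labels, mice were 9 to 10 weeks old, and CRS mice were restrained for 6 h a day on 21 days. RNA came from a tissue punch taken after behavioural testing. None of the groups carried a transgene or a drug in the labels, and sex, litter and batch are not given.

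Securin is the inhibitor of separase, the protease that cuts the cohesin rings holding sister chromatids together. Before anaphase securin keeps separase inactive, and once the spindle checkpoint is satisfied the anaphase-promoting complex (APC/C, with Cdc20) marks securin and cyclin B for destruction. Securin is also known as the pituitary tumour-transforming gene product, and transcription is among its reported roles. Pttg1ip, also called PTTG1-binding factor, is a membrane glycoprotein that binds securin, and it has been studied in the thyroid for its effect on the sodium-iodide symporter. Most cells of the adult cortex do not divide.

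In GENCODE M21 (GRCm38), Pttg1 is a protein-coding gene (ENSMUSG00000020415.16) on the minus strand at chr11:43420250-43426251, with 10 annotated transcripts, 7 of them protein-coding. Pttg1ip (ENSMUSG00000009291.13) lies on the plus strand at chr10:77581720-77598732 and also has 10 transcripts, 4 of them protein-coding. No annotated gene overlaps either. Of the distinct 31-base words in the Pttg1 transcripts, 0.618% also occur in transcripts of other genes, and of those in the Pttg1ip transcripts 0%; the assignment of single reads was not examined. The sequence just before each gene's RefSeq start is shown to give the reference sequence at which one annotated start of each gene lies. The stretches are from the GRCm38.p6 reference, 5′ to 3′ on the gene's strand, and cover chr11:43425982-43426173 on the minus strand and chr10:77581405-77581654 on the plus strand.
Pttg1: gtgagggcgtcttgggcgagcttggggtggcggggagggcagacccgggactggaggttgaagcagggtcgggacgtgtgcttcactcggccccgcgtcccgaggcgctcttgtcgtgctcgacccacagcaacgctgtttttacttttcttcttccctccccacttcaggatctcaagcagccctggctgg
Pttg1ip: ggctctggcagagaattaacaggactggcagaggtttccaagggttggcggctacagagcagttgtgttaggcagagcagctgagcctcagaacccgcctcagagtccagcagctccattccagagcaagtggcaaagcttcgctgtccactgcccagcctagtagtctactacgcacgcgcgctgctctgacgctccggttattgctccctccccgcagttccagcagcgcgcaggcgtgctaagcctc
Both stretches are rich in G and C, at 64.06% of 192 bases for Pttg1 and 60.0% of 250 bases for Pttg1ip. The CCAAT box (searched as CCAAT), the GC box (searched as GGGCGG), the cell cycle element CHR (searched as TTTGAA) and the core of the usual TATA box (searched as TATAAA) were looked for on both strands, and none matched in either printed stretch, so nothing is in capitals. The CHR is found in many promoters of cell cycle genes. Of 27025 RefSeq windows of 300 bases around gene starts, 37.92% held the CCAAT box, 35.907% the GC box, 18.105% the CHR and 14.161% the TATA box. The whole Pttg1 window held none of the 4. The Pttg1ip window held the GC box at 2 places, both after the printed bases. The Pttg1 stretch lies inside the gene as GENCODE M21 gives it. Longer transcripts begin further upstream, up to the gene end given above, and for them the stretch is intron sequence and not a promoter; it also overlaps an exon of a transcript annotated as non-coding. The bases before those starts were not searched. The bases are those of the reference, and the BALB/c sequence was not analysed here.

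Levels are in TPM, the transcript abundance of a gene after correction for length, scaled to the same total in every library, summed over the transcript rows that share a gene name. Log2 differences are on the scale log2(TPM + 1), which understates the change of low genes. Between 14805 and 15542 genes reached 1 TPM per library, and mitochondrial transcripts made up 17.35% to 23.88% of TPM. In BALB/c CRS 12, an 18S ribosomal RNA gene took 3.97% of TPM, against at most 0.169% in the others. All 5 markers of excitatory cortical neurons were present, with summed levels of 1182 to 3247 TPM. These markers were higher in BALB/c in the averaged strain comparison, with a median log2 difference of 0.40 and 2 of 5 called, or 3 after median-of-ratios scaling. Markers of other cells also differed between the strains. All 7 markers of striatal neurons and all 6 of oligodendrocytes fell in BALB/c in the averaged strain comparison, with median log2 differences of -2.51 and -2.20. Summed striatal markers ran from 189 to 2638 TPM in B6 and from 92.6 to 344 TPM in BALB/c. Summed oligodendrocyte markers ran from 2399 to 9223 TPM in B6 and from 461 to 2949 TPM in BALB/c. No marker of either list was at 0 in any group. All 5 astrocyte markers lay below 0 (median -0.44, 2 called). Of the remaining lists, 1 interneuron marker of 5 was called higher and 2 lower, 1 microglial marker of 5, 2 of 3 tested choroid plexus markers and 1 of 4 tested blood markers were called lower, and 0 markers of precursors, endothelium or pericytes were called in limma, with 1 endothelial marker at an unadjusted p under 0.05. In the same averaged comparison 14.3% of all tested genes were called lower, and 665 of 16423 were called higher. With median-of-ratios scaling 1701 of all 16390 tested genes were lower and 1478 higher. The microglial and blood calls were lost after median-of-ratios scaling. In bulk tissue, fewer cells of a type and less RNA per cell cannot be told apart.

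Pttg1 was abundant in every B6 library and close to zero in every BALB/c library. B6 controls 2, 3 and 9 held 44.5, 59.2 and 69.5 TPM. B6 CRS animals 12, 13 and 14 held 56.4, 52.5 and 47.5 TPM. BALB/c controls 5, 9 and 10 held 0.381, 2.899 and 0 TPM, and BALB/c CRS animals 12, 13 and 15 held 1.76, 0.817 and 0.0572 TPM. The strains did not overlap, since the lowest B6 library held 15.3 times as much as the highest BALB/c library. The 2 B6 groups overlapped, as did the 2 BALB/c groups, and BALB/c control 10 was listed at 0 on every Pttg1 row. Mean Pttg1 by group was 57.8 ± 12.6 TPM (B6 control), 52.1 ± 4.44 TPM (B6 CRS), 1.09 ± 1.58 TPM (BALB/c control) and 0.878 ± 0.853 TPM (BALB/c CRS), each as mean ± SD with n = 3. Order by mean thus put both B6 groups above both BALB/c groups, and neighbours within a strain did not differ beyond their spread. Over all libraries the B6 mean was 54.9 TPM and the BALB/c mean 0.986 TPM, a ratio of 55.7.

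**Figure D1:**
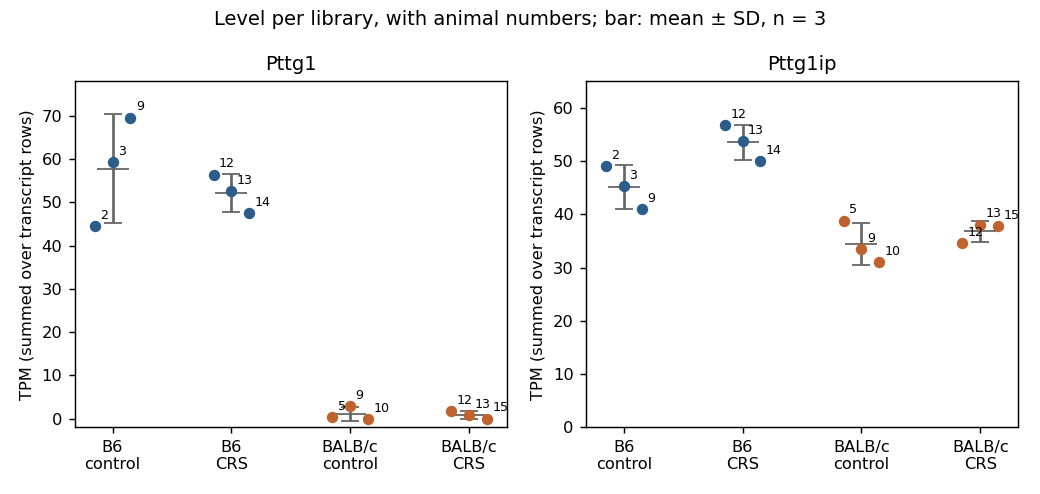
Level of Pttg1 (left) and Pttg1ip (right) in TPM in each library, by group, with animal numbers beside the points and bars for the group mean ± SD (n = 3). The 6 B6 libraries hold 44.5 to 69.5 TPM of Pttg1 and the 6 BALB/c libraries 0 to 2.899 TPM, while for Pttg1ip the strains sit close together, with all B6 points above all BALB/c points.

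On the log2(TPM + 1) scale the strain difference of Pttg1 (BALB/c minus B6) was -5.04 in controls (SE 0.44) and -4.93 after CRS (SE 0.44), and -4.98 averaged over treatments (SE 0.31). Of the 16423 genes tested, 4 fell by more in the averaged comparison, and 33 lay further from 0 in either direction. The size of this difference depends on the constant added to TPM. With 0.1 in place of 1 the averaged difference was -6.55, and with 5 it was -3.33. Without BALB/c control 9, the BALB/c library with the most Pttg1, the difference in controls was -5.62. With the oligodendrocyte score of each library (the mean log2 level of its markers) as a covariate, the averaged difference was -4.61, and with the striatal score -4.89. The SE was 0.52 with either score, against 0.31 without. Oligodendrocyte scores ran from 7.78 to 9.68 in B6 and from 5.39 to 8.03 in BALB/c. Striatal scores ran from 3.65 to 7.80 in B6 and from 3.21 to 4.82 in BALB/c. Scores and strain thus go largely together, and a covariate cannot separate composition from strain here. Only 2 other gene names in the table met the bounds that Pttg1 set, with every B6 library at 44.5 TPM or more and every BALB/c library at 2.899 TPM or less. These were 1500004A13Rik and Gm10163, chosen for mention after their values were seen.

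The few Pttg1 transcripts listed in BALB/c were not spread over the rows as in B6. The table gives 10 rows named Pttg1, with no transcript identifiers, so a row cannot be matched to a transcript, and rows are numbered here in table order. A total of 3 rows were at 0 everywhere, 6 rows were above 0 in some B6 library and 5 in some BALB/c library. Row 1 carried 53.5% of the B6 level, with 37.1, 20.8 and 36.0 TPM in B6 controls 2, 3 and 9 and 23.2, 33.9 and 25.6 TPM in B6 CRS 12, 13 and 14. Among BALB/c libraries row 1 was above 0 only in CRS 12, at 0.549 TPM.

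Row 4 carried 30.7% of the B6 level and had the widest range between B6 animals in TPM. It held 2.69, 23.1 and 25.1 TPM in B6 controls and 23.1, 9.36 and 17.7 TPM in B6 CRS. B6 control 2, the library with the least row 4, had the most row 1. In BALB/c, row 4 was above 0 only in control 5, at 0.287 TPM. Row 5 carried 9.41% of the B6 level and 62.8% of the much smaller BALB/c level. It gave all of the Pttg1 in BALB/c control 9 (2.899 TPM) and in BALB/c CRS 13 (0.817 TPM), and it was listed at 0 in the other 4 BALB/c libraries and in B6 CRS 14. In the other B6 libraries row 5 held 2.98 to 11.5 TPM. Row 8 was seen only in BALB/c CRS 12 (1.21 TPM), and rows 9 and 10 only in B6, at up to 1.61 and 3.89 TPM. Row 2 was low but even in B6, at 1.21 to 2.07 TPM in all 6 libraries, against at most 0.0933 TPM in BALB/c. How a quantifier divides reads among overlapping transcripts of 1 gene is uncertain, so single rows are less firm than their sum.

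**Figure D2:**
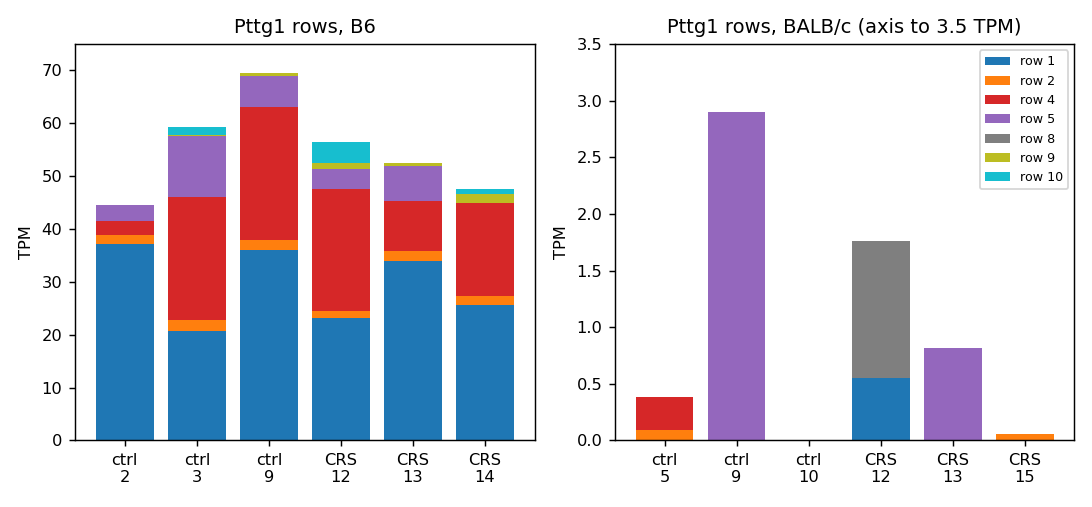
Pttg1 level in TPM per library, stacked by transcript row, in B6 (left) and BALB/c (right, on an axis that ends at 3.5 TPM); ctrl stands for control. Rows 1 and 4 make up most of each B6 bar, while the short BALB/c bars hold different rows in different animals, row 5 alone in control 9 and CRS 13.

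BALB/c control 9, whose Pttg1 was 5.28% of the B6 mean, was compared with the other BALB/c libraries on genes that mark the strain in these data. Of the genes under 0.1 TPM in the other 5 BALB/c libraries and at 5 TPM or more in every B6 library there were 9. All 9 were under 0.1 TPM in BALB/c control 9 as well, with a median of 0 TPM, where their median B6 mean was 22.3 TPM. None of these 9 genes was thus at 5.28% of its B6 level in that library.

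CRS did not change Pttg1 detectably in either strain. The tests were made with limma across all genes, with p-values adjusted by the Benjamini-Hochberg method. In B6 the log2 difference (CRS minus control) was -0.13 (SE 0.44, 95% interval -1.08 to 0.83, limma adjusted p = 1). In BALB/c it was -0.01 (SE 0.44, 95% interval -0.97 to 0.95, limma adjusted p = 1), a range in which both groups lie near 0 TPM. These intervals leave room for changes of nearly 1 log2 unit in either direction, so a smaller response could not be seen with 3 animals a group. The difference between the CRS effects of the strains was 0.12 (SE 0.62, limma adjusted p = 1), and the CRS effect averaged over strains was -0.07 (SE 0.31, limma adjusted p = 0.992; exact permutation within strains, two-sided p = 0.845, with 0.005 the smallest possible). CRS called few genes of any kind at an adjusted p under 0.05. It called 0% of tested genes in B6, 0.00609% in BALB/c, 0% for the difference between strains and 0.00609% averaged over strains. The counts were 0, 1, 0 and 1 genes, against 792, 497, 443 and 849 genes at an unadjusted p under 0.05 in limma.

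Pttg1ip, the binding partner, was present at similar levels to B6 Pttg1 in both strains and was moderately lower in BALB/c. B6 controls 2, 3 and 9 held 49.1, 45.3 and 41.0 TPM, and B6 CRS 12, 13 and 14 held 56.7, 53.7 and 49.98 TPM. BALB/c controls 5, 9 and 10 held 38.8, 33.5 and 31.1 TPM, and BALB/c CRS 12, 13 and 15 held 34.6, 38.0 and 37.7 TPM. All 6 B6 libraries lay above all 6 BALB/c libraries, though the lowest B6 library was only 1.06 times the highest BALB/c library. How many of all tested genes separate the strains in this way was not counted, here or for the genes below. Control means were 45.1 ± 4.06 TPM for B6 and 34.4 ± 3.97 TPM for BALB/c (SD, n = 3 each). CRS means were 53.5 ± 3.37 TPM for B6 and 36.8 ± 1.92 TPM for BALB/c (SD, n = 3 each). The B6 mean was 1.38 times the BALB/c mean. In B6 libraries Pttg1 thus stood at 54.9 TPM beside 49.3 TPM of Pttg1ip, and in BALB/c at 0.986 TPM beside 35.6 TPM.

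The averaged strain difference of Pttg1ip (BALB/c minus B6) was -0.45 on the log2 scale (SE 0.08, 95% interval -0.63 to -0.28, limma adjusted p = 0.00228). An exact permutation of strain labels within treatments gave two-sided p = 0.005, the smallest it allows. In the same comparison 18.4% of tested genes were called, and 14.3% were called as lower in BALB/c. After CRS Pttg1ip also fell in BALB/c (-0.53, SE 0.11, limma adjusted p = 0.0145), where 7.7% of genes were called and 5.33% as lower. In controls the difference was -0.38 (SE 0.11, limma adjusted p = 0.0788) and did not pass, where 4.73% of genes were called and 3.37% as lower. The share of lower calls among all genes depends on scaling. Averaged over treatments, BALB/c had 665 genes called higher and 2356 called lower, and after median-of-ratios scaling 1478 were higher and 1701 lower. In controls the split was 224 to 553 and became 344 to 389, and after CRS it was 389 to 875 and became 642 to 749. The median of all genes lay at -0.08 in the averaged comparison and at -0.10 in controls. With that scaling Pttg1ip was still lower in BALB/c, at -0.36 averaged over treatments (limma adjusted p = 0.00856).

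The Pttg1ip calls were lost with a composition score in the model, as were most calls. Over all tested genes, the averaged comparison went from 3021 calls to 370 (oligodendrocyte score) and 520 (striatal score). Scores and strain go largely together, so composition and strain cannot be told apart. With the oligodendrocyte score as a covariate the averaged difference of Pttg1ip was -0.29 (SE 0.12, limma adjusted p = 0.429). With the striatal score it was -0.31 (SE 0.12, limma adjusted p = 0.22), where the SE without a score was 0.08. After CRS the values were -0.36 (limma adjusted p = 0.463) and -0.33 (limma adjusted p = 0.452). The call after CRS was also lost without B6 CRS 12 (-0.49, limma adjusted p = 0.0729) and without BALB/c CRS 12 (-0.48, limma adjusted p = 0.0523). In controls, leaving out B6 control 9 gave a call (-0.45, limma adjusted p = 0.0421). The averaged call held without each of the 12 libraries in turn, with adjusted p at most 0.0088.

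Most Pttg1ip came from a single transcript row. Of its 10 rows, 8 were above 0 in some library of each strain, and row 1 carried 77.2% of the B6 level and 73.7% of the BALB/c level. Row 1 held 27.2 to 44.9 TPM in B6 and 23.0 to 30.3 TPM in BALB/c, so the strains overlapped on it. Its averaged strain difference was -0.51 (SE 0.10, limma adjusted p = 0.0169 over 46000 rows). Row 1 was not called in controls (-0.47, limma adjusted p = 0.189) or after CRS (-0.54, limma adjusted p = 0.102). Under the alternatives that kept all libraries its averaged difference ran from -0.52 to -0.18, with limma adjusted p up to 0.787. In the averaged comparison the other 6 rows that could be tested gave values from -0.67 (row 6, limma adjusted p = 0.268) to 0.56 (row 9, limma adjusted p = 0.366), and none was called.

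CRS was not shown to change Pttg1ip. In B6 all 3 CRS libraries lay above all 3 controls, at 1.19 times the control mean, and the log2 difference was 0.24 (SE 0.11, limma adjusted p = 1). In BALB/c it was 0.10 (SE 0.11, limma adjusted p = 1), with overlapping groups. The difference between the strains' CRS effects was -0.15 (SE 0.16, limma adjusted p = 1). Averaged over strains the CRS effect was 0.17 (SE 0.08, limma adjusted p = 0.946), where an exact permutation of this single value gave two-sided p = 0.045 before any adjustment over genes.

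Separase itself (Espl1) was too low to be tested, at 1 TPM or more in only 2 libraries. Its levels were 5.16, 0.539 and 0.911 TPM in B6 controls 2, 3 and 9 and 0.427, 0.639 and 2.40 TPM in B6 CRS 12, 13 and 14. In BALB/c it held 0.324, 0.331 and 0.0931 TPM in controls 5, 9 and 10 and 0.129, 0.545 and 0.194 TPM in CRS 12, 13 and 15. The strains overlapped, and the B6 mean of 1.68 TPM was set largely by 2 libraries. The B6 libraries with most Espl1 were not those with most Pttg1, since B6 control 2, at 5.16 TPM of Espl1, had the least Pttg1 of the B6 libraries.

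Around securin, 7 lists of genes were described, covering the separase axis, cohesin, the APC/C, the spindle checkpoint, dividing cells, reported partners and targets of securin, and reported partners of Pttg1ip. They hold 74 genes other than the 2 described above, of which 66 passed the filter on low values. Averaged over treatments, 18 (27.3%) fell in BALB/c and 0 rose, where 14.3% of all tested genes were called lower. After median-of-ratios scaling 13 were lower and 3 higher, where 1701 of all 16390 tested genes were lower and 1478 higher. The scaled counts of the single lists below stand beside these. With a composition score, calls over all tested genes fell from 3021 to 370 (oligodendrocyte) or 520 (striatal). Calls of list genes lost with a score stand beside this general loss. In the 4 CRS contrasts no gene of these lists passed in limma, and at an unadjusted p under 0.05 there was 1 in B6, 0 in BALB/c, 1 for the difference between strains and 0 averaged over strains. Apart from Slc5a5 and the securin partners, the genes that fell, Bub1b among them, were genes of mitosis and S phase at a few TPM. Cdc20, Pclaf, Aurkb and Bub1b reached at most 0.978, 0.69, 0.576 and 0.495 TPM in BALB/c. They passed the filter of 1 TPM only through B6. Cdk1 and Ccnb1 reached 1 TPM in BALB/c only in control 9 (1.11 and 1.67 TPM). Genes that enter through B6 lean toward lower calls, and how far this raises the 27.3% was not counted.

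**Figure D3:**
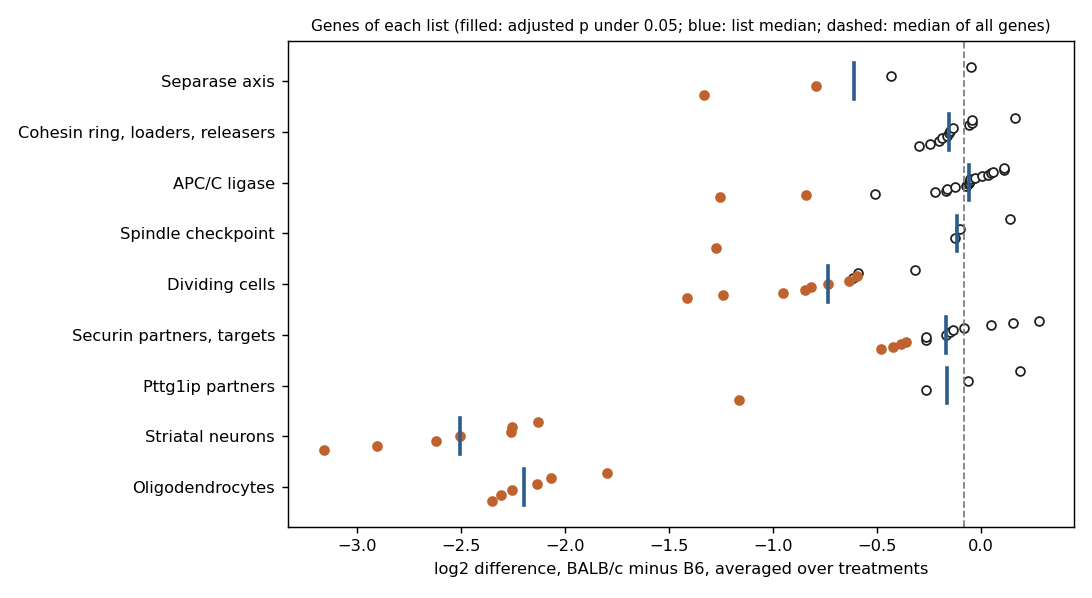
Log2 difference on the log2(TPM + 1) scale (BALB/c minus B6, averaged over treatments) of each tested gene, 1 point per gene, by list. Filled points have a limma adjusted p under 0.05, blue bars are list medians, and the dashed line is the median of all tested genes. The cohesin list lies near the dashed line, the dividing-cell list left of it, and the striatal and oligodendrocyte markers furthest left.

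Of the separase axis, 4 of 7 genes were tested (list median -0.61), where 14.3% of all tested genes were called lower. In this list 2 fell. These were Cdk1, the mitotic kinase (-1.33, SE 0.36, limma adjusted p = 0.0253), and Ccnb1, the cyclin B that activates it (-0.79, SE 0.23, limma adjusted p = 0.0358). After median-of-ratios scaling only Cdk1 was called. Neither was called with either composition score, and Cdk1 was called in 6 and Ccnb1 in 4 of the 12 fits that left out 1 library. Of the cohesin ring and its loaders and releasers, 12 of 14 genes were tested and 0 were called in limma, with 1 at an unadjusted p under 0.05. The cohesin median was -0.15, beside -0.08 for all genes. Rad21, the subunit that separase cuts, was steady at 49.9 to 53.6 TPM in B6 and 39.4 to 52.2 TPM in BALB/c, with overlapping ranges.

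All 19 APC/C genes were tested, the list median was -0.06 and 2 fell, where 14.3% of all tested genes were called lower; after median-of-ratios scaling 1 was called. The core subunits were not called, and the 2 that fell were Ube2c, the ubiquitin-conjugating enzyme of the complex (-1.26, SE 0.37, limma adjusted p = 0.036), and Cdc20, its mitotic activator (-0.84, SE 0.26, limma adjusted p = 0.0401). Both calls were lost with either composition score and in 9 of the 12 fits that left out 1 library. Cdc20 stayed under 1 TPM in every BALB/c library, so it passed the filter only through B6. The calls of Cdk1, Ccnb1, Ube2c and Cdc20 were each lost without B6 control 2, B6 control 3, B6 CRS 12, BALB/c control 10 or BALB/c CRS 12, with limma adjusted p up to 0.0665, 0.0905, 0.0909 and 0.1 over all fits that left out 1 library.

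Among 4 tested of 6 spindle checkpoint genes, 1 fell, where 14.3% of all tested genes were called lower. Bub1b, whose product BubR1 restrains APC/C with Cdc20, had 1.28 to 2.51 TPM in B6 and 0.0617 to 0.495 TPM in BALB/c. The strains did not overlap. No BALB/c library reached 1 TPM, so Bub1b passed the filter on low values only through B6, where it was high. Its p-values are therefore a description and carry no weight as a test of strain. Its averaged difference was -1.28 (SE 0.13, limma adjusted p = 4.16e-05), and it was called in controls (-0.99, limma adjusted p = 0.00893) and after CRS (-1.57, limma adjusted p = 0.000266). With the oligodendrocyte score it was still called (-1.08, limma adjusted p = 0.0247), as it was with the striatal score (-1.19, limma adjusted p = 0.0108) and in all 12 fits that left out 1 library. None of its 31-base words occurs in transcripts of another gene.

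Pttg1 is known as a gene of dividing cells, and the dividing-cell list moved with strain. Of its 12 genes 11 were tested, with a median of -0.74, and 8 fell in the averaged comparison, among them Top2a (-1.41, limma adjusted p = 0.0273), Pclaf (-1.24, limma adjusted p = 0.00344), Rrm2 (-0.95, limma adjusted p = 0.0378) and Aurkb (-0.85, limma adjusted p = 0.0181). After CRS 5 fell, and in controls 0 were called in limma. The shares of all tested genes called lower were 14.3% averaged over treatments, 5.33% after CRS and 3.37% in controls. Pclaf and Aurkb stayed under 1 TPM in every BALB/c library and passed the filter only through B6. After median-of-ratios scaling the averaged count was 6 and that after CRS 3, where 1701 and 749 of all 16390 tested genes were lower. None was called in the averaged comparison with either composition score, where Top2a was at 0.06 with the oligodendrocyte and -0.14 with the striatal score, and Pclaf at -0.65 and -0.51. Leaving out 1 library gave 2 to 9 calls, with the most without B6 control 9. It gave 2 without BALB/c control 10, 3 without B6 control 2, B6 control 3, B6 CRS 14 or BALB/c CRS 12, and 4 without B6 CRS 12, BALB/c control 5 or BALB/c CRS 13. The 5 calls after CRS became 1 without B6 CRS 12, 13 or 14 or BALB/c CRS 12 or 13. They became 2 without B6 control 3, BALB/c control 5 or BALB/c CRS 15, 3 without BALB/c control 9 and 9 without B6 control 9.

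Library by library, the dividing-cell genes did not follow Pttg1 within B6. Their summed level was 32.5, 24.2 and 7.58 TPM in B6 controls 2, 3 and 9, in the reverse order of Pttg1 in those animals. It was 35.1, 28.1 and 37.9 TPM in B6 CRS 12, 13 and 14. In BALB/c it was 11.6, 18.2 and 6.16 TPM in controls 5, 9 and 10 and 4.95, 7.33 and 13.2 TPM in CRS 12, 13 and 15. Between the strains, B6 control 9, singled out after its values were seen, lay within the BALB/c range of this sum (7.58 against 4.95 to 18.2 TPM). The other B6 libraries, at 24.2 TPM or more, all lay above every BALB/c library. B6 control 9 also held 0.301 TPM of Top2a and was listed at 0 for Cdk1, and it had the most Pttg1 of all 12 libraries. Whether the number of dividing cells bears on the strain difference of Pttg1 was not tested.

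Of 13 reported partners and targets of securin, all tested, 4 fell in the averaged comparison. They were Ccnd3, a G1 cyclin (-0.48, limma adjusted p = 0.023), Sp1, a transcription factor (-0.42, limma adjusted p = 0.0188), and Xrcc5 and Xrcc6, the Ku subunits of DNA end joining (-0.38 and -0.36, limma adjusted p = 0.00663 and 0.0392). In the same comparison 14.3% of all tested genes were called lower. None of the 4 was called with either composition score. Values with the oligodendrocyte and striatal scores were -0.42 and -0.39 (Xrcc5), -0.33 and -0.31 (Xrcc6), and -0.33 and -0.31 (Sp1). Ccnd3 was at -0.25 and -0.29. After median-of-ratios scaling 2 of the list were higher and 3 lower, where 1478 of all 16390 tested genes were higher and 1701 lower. Sp1 and Xrcc5 were called in all 12 fits that left out 1 library, Ccnd3 in 7 and Xrcc6 in 4. Trp53, the p53 gene, which is on both partner lists, held 12.4 to 16.9 TPM in BALB/c and 13.7 to 19.7 TPM in B6 and was not called (-0.26, limma adjusted p = 0.107).

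Among the 4 reported partners of Pttg1ip, only Slc5a5 was called, in controls, after CRS and averaged over treatments. The shares of all tested genes called lower were 3.37%, 5.33% and 14.3% in these comparisons. Slc5a5 is the gene of the sodium-iodide symporter. B6 controls 2, 3 and 9 held 9.25, 12.5 and 13.4 TPM, and B6 CRS 12, 13 and 14 held 7.44, 9.91 and 9.78 TPM. BALB/c controls 5, 9 and 10 held 4.51, 3.21 and 3.95 TPM, and BALB/c CRS 12, 13 and 15 held 3.54, 4.57 and 4.36 TPM. The strains did not overlap. The log2 difference was -1.16 averaged over treatments (SE 0.12, limma adjusted p = 4.74e-05), -1.37 in controls (limma adjusted p = 0.000418) and -0.96 after CRS (limma adjusted p = 0.00612). With the oligodendrocyte score it was -1.32 (limma adjusted p = 0.0041) and with the striatal score -1.51 (limma adjusted p = 0.000147). Cttn, the gene of cortactin, was not called (-0.06, limma adjusted p = 0.787).

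Genes beside Pttg1 on chromosome 11 that could be tested did not share its difference. Of the 10 protein-coding neighbours on each side, 13 of 20 were tested, with a median of 0.07. In the averaged comparison 1 rose and 1 fell, and after median-of-ratios scaling 2 were higher and 0 lower. Of all 16423 tested genes, 665 were called higher and 14.3% lower. With the scaling, 1478 of all 16390 tested genes were higher and 1701 lower. The nearest, Slu7, a splicing factor gene, starts 7.49 kb away and held 34.7 to 40.6 TPM in B6 and 28.8 to 36.5 TPM in BALB/c. Its difference was -0.15 (SE 0.08, limma adjusted p = 0.215). On the other side the adjacent gene, Atp10b, 157.96 kb away, was too low to be tested. Its levels were 0.136 to 0.927 TPM in B6 and 0.0215 to 0.249 TPM in BALB/c. The nearest tested gene on that side was Gabrb2, a GABA-A receptor subunit 791.22 kb away (0.10, SE 0.16, limma adjusted p = 0.722). Adra1b, the alpha-1B adrenergic receptor gene 348.36 kb away, rose in BALB/c. It held 4.49 to 15.9 TPM in B6 and 12.5 to 22.4 TPM in BALB/c, with an averaged difference of 1.19 (SE 0.23, limma adjusted p = 0.00449). Adra1b was highest among B6 libraries in control 9, which overlapped with BALB/c, and was not called with the oligodendrocyte (limma adjusted p = 0.577) or striatal score (limma adjusted p = 0.463). Pwwp2a fell (-0.28, limma adjusted p = 0.0494), a call lost after median-of-ratios scaling (limma adjusted p = 0.074) and in 10 of the 12 fits that left out 1 library.

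**Figure D4:**
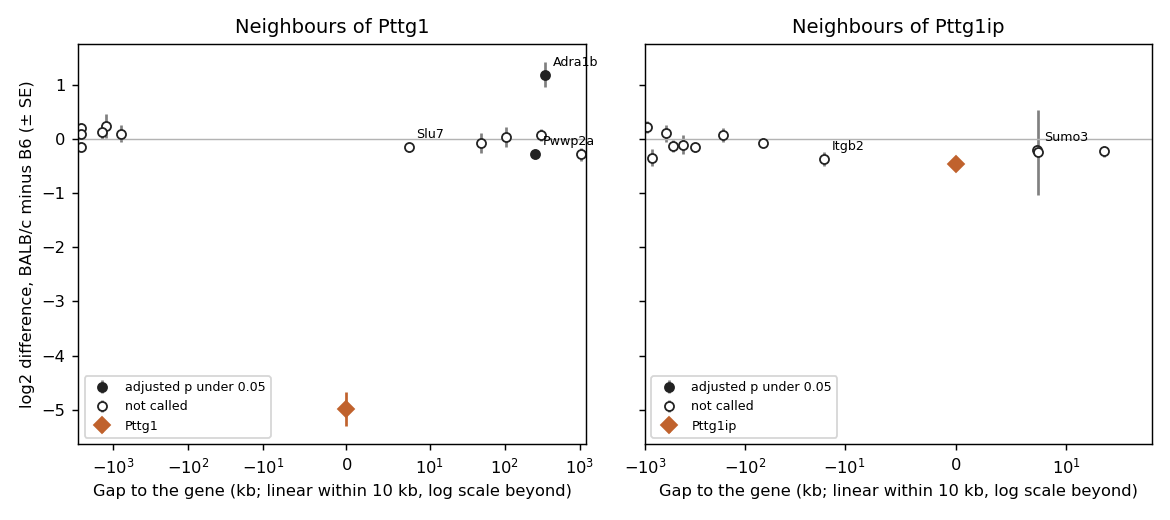
Log2 difference on the log2(TPM + 1) scale (BALB/c minus B6, averaged over treatments, ± SE) of tested genes around Pttg1 (left) and Pttg1ip (right), against the gap to the gene in kb, negative toward lower coordinates and on a log scale beyond 10 kb. Filled points have a limma adjusted p under 0.05. Pttg1 lies at -4.98 while its tested neighbours lie near 0, except Adra1b at 1.19.

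Around Pttg1ip on chromosome 10, 12 of 20 neighbours were tested and 0 were called in limma, with 3 at an unadjusted p under 0.05 and a median of -0.14. Of all 16423 tested genes 18.4% were called, 5259 were at an unadjusted p under 0.05, and the median was -0.08. After median-of-ratios scaling 1 neighbour was called higher, where 1478 of all 16390 tested genes were. The nearest were Sumo3, a SUMO protein gene 7.36 kb away (-0.20, limma adjusted p = 0.113), and Itgb2, an integrin beta chain gene 16.01 kb away (-0.37, limma adjusted p = 0.0699).

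Genes were ranked by how closely their profile over the 12 libraries followed each member, using the root-mean-square difference in log2(TPM + 1) after centring each gene on its own mean. Since Pttg1 was chosen for a strain difference, its list is a description. Leaving out names of the Gm, Rik and pseudogene kind, the 5 nearest to Pttg1 were Rps2 (0.57), Rps18 (0.65), Ccl21d (0.76), Chd9 (0.86) and Ahcy (0.87). Rps2 and Rps18 are ribosomal protein genes. Their B6 means were 726 and 586 TPM and their BALB/c means 19.4 and 30.1 TPM, so they kept a level in BALB/c above that of Pttg1 in any BALB/c library. Of their 31-base words, 48.8% (Rps2) and 27.9% (Rps18) occur in transcripts of other genes, against 71.4% for Ahcy, 4.23% for Chd9 and 0.618% for Pttg1. Pttg1 was thus the gene with the smallest such share among the 5 of these 6 genes that GENCODE M21 names, all but Ccl21d. Nearest to Pttg1ip were Rbl2 (0.07), Rbmx (0.07) and Ilk (0.09), each with a lower mean in BALB/c than in B6.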

How the data were processed

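RNA of 12 mouse cortex punches was sequenced as stranded poly(A)-selected paired reads, per the labels' protocols. The authors deposited 1 table of TPM values with a gene name per transcript row and 1 column per library; cutadapt 2.9, Salmon and the GRCm38 build are named in the submitters' processing notes, and the transcript annotation is not given in the sources used here. TPM sums to the same total in each library and keeps no depth, so read numbers are unknown and only the animals' spread gives the precision. The GRCm38 reference is of B6 origin, so fewer reads assigned through sequence differences and less RNA in BALB/c cannot be told apart.

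Rows were summed by gene name. Genes at 1 TPM or more in at least 3 libraries (16423) were fitted as log2(TPM + 1) with limma 3.58.1 (R 4.3.3; 4 group means, all 12 libraries, eBayes with trend), and called at a Benjamini-Hochberg adjusted p under 0.05. Standard errors and intervals are from that fit. The script was tested on simulated data. Positions came from GENCODE M21 and sequences upstream of RefSeq gene starts from RefSeq (GRCm38.p6).

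The members and gene lists were chosen with earlier results of these data known. The genes named were both members, Espl1, up to 4 called genes of largest difference per list and contrast, the nearest tested neighbour on each side, and the genes of most similar profile; Rad21, Trp53 and Cttn were added after their values were seen. Samples were grouped by the strain and treatment in their titles. Animal numbers are shared across strains (9, 12 and 13) but name different mice. Alternatives were other pseudocounts, filters, scaling, the highest row in place of the sum, no trend, composition covariates, a replicate block and leaving out each library.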

Additional observations from a re-analysis of the deposited data

How the results depend on the processing

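Of 242 values for the CRS comparisons of both genes and the strain comparisons of Pttg1ip under the alternatives, 219 kept their sign and their side of the threshold, 7 crossed the threshold with the same sign, and 16 changed sign without being called. These 16 were all CRS values of Pttg1, which had no settled direction. Under the alternatives that kept all libraries Pttg1 ran from -0.19 to -0.11 in B6, -0.07 to 0.30 in BALB/c, -0.13 to 0.09 averaged over strains and 0.09 to 0.43 for the difference between strains. Without 1 library the ranges were -0.30 to 0.02, -0.41 to 0.57, -0.27 to 0.22 and -0.29 to 0.70. Pttg1ip after CRS lost its call with the oligodendrocyte score (-0.36) and the striatal score (-0.33), and averaged over treatments likewise (-0.29 and -0.31); the cause was not tested. Leaving out 1 library gave -0.57 to -0.48 for Pttg1ip after CRS, -0.47 to -0.31 in controls and -0.50 to -0.42 averaged over treatments. Genes called in the averaged strain comparison numbered 3021, and 370 with the oligodendrocyte score, 520 with the striatal score, 1929 with a mean of at least 5 TPM, and 1975 to 3787 without 1 library. Corresponding ranges were 243 to 1852 after CRS (1264 called) and 286 to 1389 in controls (777 called). CRS called 0 to 7 genes in B6, 0 to 3 in BALB/c, 0 to 2 averaged over strains and 0 to 2 for the difference between strains. Depth is unknown, so a value of 0 cannot be given an upper limit, and each group holds 3 animals.

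The animal numbers that occur in both strains do not pair the mice. Deviations from the group means correlated at -0.242 for number 9, -0.0293 for 12 and -0.0361 for 13, so same-numbered libraries did not deviate together. With these numbers as a block, the Pttg1ip strain differences were -0.45 averaged over treatments (limma adjusted p = 0.0103), -0.53 after CRS (limma adjusted p = 0.0442) and -0.38 in controls (limma adjusted p = 0.143). No call of either member changed under the block.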
